A study of Mus musculus with 6 samples.

Results

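The 10 genes described here, Trem2, Tyrobp, Apoe, Lpl, Itgax, Axl, Clec7a, Cd68, Spp1 and Mpeg1, mark the disease-associated or phagocytic state of microglia, the resident macrophages of the brain. They were taken by symbol from the 50383 gene identifiers of the deposited tables, where each symbol matched 1 identifier. That step reads no measured value, but the set itself was chosen with earlier results of these data known. RNA came from the lateral amygdala, where fear associations are stored, of male 129xC57BL/6 hybrid mice aged 2 to 3 months. Of the 6 libraries, 2 were labelled control, 2 scrambled siRNA (a small interfering RNA with no intended target) and 2 Baf53b siRNA. The last is directed at Actl6b, whose protein BAF53b is a neuronal subunit of the BAF chromatin remodelling complex. The study asked about the loss of a remote fear memory on knockdown of BAF53b, and its design text places the Baf53b siRNA injection 1 day after training. The treatment of the control mice, and the training and injection time of both other groups, are not stated in the labels. These speak of tissue from 4 mice without saying whether a library is a pool, so a p-value below measures the spread between libraries, which may be technical.

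Actl6b, the targeted gene, checks the labels. Its level was 42.9 and 44.1 FPKM (control), 43.8 and 43.9 FPKM (scrambled siRNA) and 42.8 and 39.6 FPKM (Baf53b siRNA) (FPKM, the fragments of a gene relative to its transcript length and to the total of the library). Baf53b siRNA differed from scrambled siRNA by -0.09 on the log2(FPKM + 1) scale (SE 0.12; limma adjusted p = 1; two-sided exact permutation p = 0.333, the smallest that 2 libraries against 2 can give). Its 95% interval ran from 23.3% lower to 15.4% higher, so no loss of the targeted messenger RNA was detectable. Both Baf53b siRNA libraries were the lowest for Actl6b, but the nearest was at 42.8 FPKM against 42.9 FPKM in a control library. Each library below is named by its label. The depth implied by the deposited intervals was 6.43 M to 10.7 M fragments a library, and mitochondrially encoded genes took 15.0% to 29.5% of the summed FPKM. The dissected tissue was rich in neuronal RNA: Camk2a, an enzyme of excitatory neurons, ranged from 880 to 1115 FPKM and Snap25, a synaptic protein, from 735 to 841 FPKM over the 6 libraries. In such bulk tissue more cells of a type and more RNA per cell cannot be told apart.

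As background, TREM2 is a lipid-sensing receptor on the microglial surface that has no signalling tail of its own. It signals through TYROBP (DAP12), an adaptor that recruits the kinase SYK. In models of neurodegeneration, demyelination and ageing, microglia that engage lipid debris lower part of their homeostatic programme. They raise genes of lipid handling, phagocytosis and lysosomal digestion, only part of them in a TREM2-dependent step. Genes of the set above are among those raised, and not all of these depend on TREM2. PU.1, the product of Spi1, is the lineage-determining transcription factor of macrophages and binds a purine-rich core, GAGGAA. Spi1 itself was at 3.01 and 2.35 FPKM (control), 5.66 and 5.85 FPKM (scrambled siRNA) and 10.3 and 8.78 FPKM (Baf53b siRNA).

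The 250 bases before the start site of 5 of the 10 genes are printed, 5′ to 3′ on the gene's strand. Every GAGGAA or its complement TTCCTC is in capitals. The sequences are from RefSeq on GRCm38.p6, the reference release of the mm10 build of the deposited tables, and lie upstream of the annotated exons. They were chosen from the genes that passed a test below or were nearly silent in control.
Trem2, chr17:48346151-48346400, plus strand: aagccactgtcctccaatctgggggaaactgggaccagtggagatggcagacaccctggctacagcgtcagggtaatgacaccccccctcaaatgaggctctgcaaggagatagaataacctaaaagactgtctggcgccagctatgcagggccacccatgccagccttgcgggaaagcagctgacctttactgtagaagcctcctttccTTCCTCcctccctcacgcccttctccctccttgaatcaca
Cd68, chr11:69666171-69666420, minus strand: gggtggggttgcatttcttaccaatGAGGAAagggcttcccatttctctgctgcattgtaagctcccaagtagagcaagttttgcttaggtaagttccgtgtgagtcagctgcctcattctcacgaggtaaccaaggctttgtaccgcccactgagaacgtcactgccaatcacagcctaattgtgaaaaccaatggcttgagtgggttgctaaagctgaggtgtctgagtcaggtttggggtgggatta
Mpeg1, chr19:12460520-12460769, plus strand: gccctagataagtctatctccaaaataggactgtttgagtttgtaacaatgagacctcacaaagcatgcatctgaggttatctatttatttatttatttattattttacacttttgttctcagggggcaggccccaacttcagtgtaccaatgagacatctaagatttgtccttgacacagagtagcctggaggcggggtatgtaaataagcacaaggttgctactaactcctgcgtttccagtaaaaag
Clec7a, chr6:129472780-129473029, minus strand: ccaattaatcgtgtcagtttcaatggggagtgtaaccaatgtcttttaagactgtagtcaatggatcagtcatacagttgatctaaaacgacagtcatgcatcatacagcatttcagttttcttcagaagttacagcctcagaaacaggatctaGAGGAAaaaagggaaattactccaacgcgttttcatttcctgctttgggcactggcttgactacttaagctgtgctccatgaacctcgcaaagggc
Spp1, chr5:104434861-104435110, plus strand: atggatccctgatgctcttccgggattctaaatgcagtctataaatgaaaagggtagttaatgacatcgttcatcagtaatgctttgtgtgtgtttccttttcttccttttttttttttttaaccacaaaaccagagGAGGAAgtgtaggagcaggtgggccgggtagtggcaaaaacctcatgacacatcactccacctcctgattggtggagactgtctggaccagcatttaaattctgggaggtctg
The RefSeq table matched 8 of the 10 genes, all but Tyrobp and Lpl. Searched on both strands, GAGGAA was found once in each of 6 of these 8 windows (75%), against 23.3% of 32817 windows of the same length over all genes. Its leftmost base lay 40 bases before the start of Trem2, 96 before that of Clec7a, 113 before that of Spp1, 130 before that of Axl, 225 before that of Cd68 and 250 before that of Apoe. The AP-1 motif TGANTCA was in 3 of the 8 windows (37.5%), those of Trem2, Itgax and Cd68, against 6.75% of all windows. GAAANNGAA, a motif of interferon regulatory factors, was in those of Apoe and Spp1, 2 of the 8, against 7.12% of all windows. The STAT motif TTCNNNGAA and the E-box CACGTG, present in 7.01% and 6.02% of all windows, were in none of the 8. The window of Mpeg1 held none of the 5 motifs, and matches of different motifs did not share bases in these windows. A match describes letters only and is not a measured binding site. Any part of PU.1 or of these motifs in the order of the libraries was not tested.

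In control tissue Apoe was the highest of the 10 per transcript length, with a mean of 1506 ± 132 FPKM (SD, n = 2). Tyrobp followed at 24.8 ± 2.26 FPKM, Axl at 11.1 ± 1.10 FPKM, and then Trem2 (7.05 ± 0.117), Mpeg1 (6.73 ± 0.363) and Cd68 (6.63 ± 0.0465), which lay close together. Lpl was at 3.97 ± 0.645 FPKM (all SD, n = 2). Spp1, Itgax and Clec7a were all under 0.4 FPKM in both control libraries. For 9 of the 10 genes, all but Lpl, both control libraries lay below both scrambled siRNA libraries and these lay below both Baf53b siRNA libraries, as the plot of levels by library shows. Of the 14663 genes tested, 3.44% showed this order without overlap, and 6 of the 7 members among them did.

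**Figure D1:**
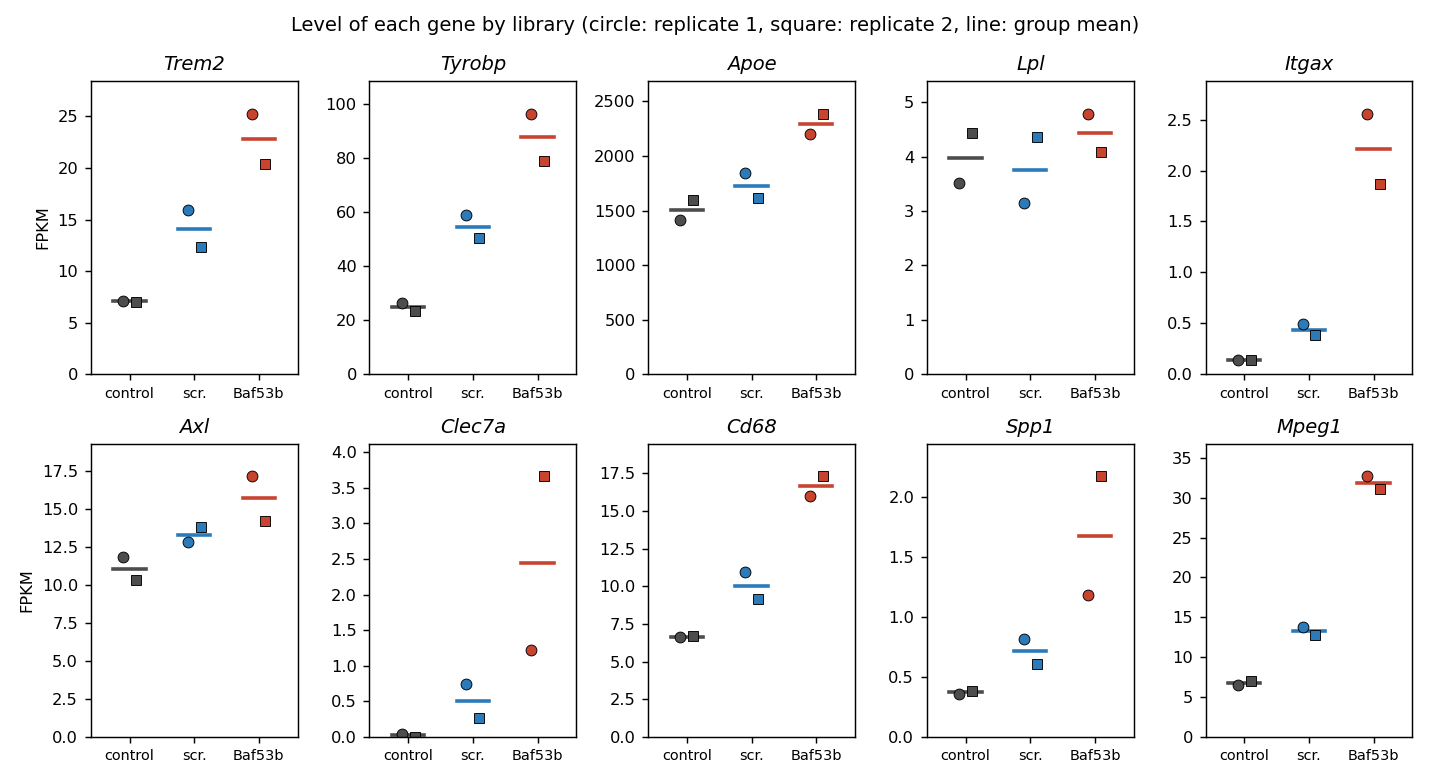
FPKM (linear axes from 0) of the 10 genes in the 6 libraries, with circles for replicate 1, squares for replicate 2, lines for the group means, and "scr." for scrambled siRNA. All genes but Lpl step up from control to scrambled siRNA to Baf53b siRNA with no overlap between groups, and the Baf53b siRNA pair is widest relative to its level for Clec7a (1.22 and 3.66 FPKM).

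The receptor and its adaptor were both higher against control. Trem2 (ENSMUSG00000023992.14, chr17:48346401-48354147, plus strand) was at 7.14 and 6.97 FPKM (control), 15.9 and 12.3 FPKM (scrambled siRNA) and 25.3 and 20.4 FPKM (Baf53b siRNA). All groups were apart, and the control pair was the tightest. Its mean was 3.24-fold higher in Baf53b siRNA than in control, a rise of 1.56 on the log2(FPKM + 1) scale (SE 0.17; limma adjusted p = 0.0109). Against scrambled siRNA the mean was 1.62-fold higher, but the difference of 0.66 (SE 0.17; limma adjusted p = 0.628) did not pass. Tyrobp (ENSMUSG00000030579.10, chr7:30413760-30417585, plus strand) was at 26.4 and 23.2 FPKM (control), 58.7 and 50.3 FPKM (scrambled siRNA) and 96.3 and 78.7 FPKM (Baf53b siRNA). Replicate 1 was above replicate 2 in every group, as it was for Trem2. The rise against control was 3.52-fold in the mean and 1.77 on the log2(FPKM + 1) scale (SE 0.16; limma adjusted p = 0.00599). Against scrambled siRNA the difference of 0.67 (SE 0.16; limma adjusted p = 0.490) did not pass. Without Baf53b siRNA replicate 1 both calls against control were lost (limma adjusted p 0.122 for Trem2 and 0.0600 for Tyrobp), while the log2 differences were 1.41 and 1.63.

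Of the members, only Mpeg1 passed the test between the siRNA groups. Mpeg1 (ENSMUSG00000046805.9, chr19:12460779-12465284, plus strand) encodes perforin-2, a pore-forming protein of macrophage phagosomes. It was at 6.48 and 6.99 FPKM (control), 13.8 and 12.8 FPKM (scrambled siRNA) and 32.7 and 31.1 FPKM (Baf53b siRNA). In all groups the replicates lay close together relative to the steps between groups. Mpeg1 rose 2.40-fold in the mean against scrambled siRNA, by 1.20 on the log2(FPKM + 1) scale (SE 0.13; limma adjusted p = 0.0357). Paired by replicate number the difference was 1.19 and 1.21. That call was lost in 11 of 21 alternative analyses, among them every one that left out a library, with log2 differences between 1.15 and 1.26 throughout and adjusted p between 0.0288 and 0.362. Against control the rise was 4.73-fold and 2.09 on the log2(FPKM + 1) scale (SE 0.13; limma adjusted p = 0.00202), and this call held in all 21 alternatives.

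Cd68 (ENSMUSG00000018774.13, chr11:69664213-69666153, minus strand), a membrane glycoprotein of macrophage lysosomes, was at 6.60 and 6.67 FPKM (control), 10.9 and 9.13 FPKM (scrambled siRNA) and 16.0 and 17.3 FPKM (Baf53b siRNA). The groups did not overlap. It rose 2.51-fold in the mean against control, by 1.21 on the log2(FPKM + 1) scale (SE 0.15; limma adjusted p = 0.0136). Against scrambled siRNA the mean was 1.66-fold higher, but the difference of 0.68 (SE 0.15; limma adjusted p = 0.341) did not pass. The call against control was lost without control replicate 1 (limma adjusted p = 0.0733), control replicate 2 (0.0768), Baf53b siRNA replicate 1 (0.135) or Baf53b siRNA replicate 2 (0.134), with log2 differences between 1.16 and 1.26. The call of Trem2 against control was likewise lost without control replicate 1 (limma adjusted p = 0.0592) or control replicate 2 (0.0622).

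The other surface receptors differed widely in level. Itgax (ENSMUSG00000030789.9, chr7:128129547-128150657, plus strand) encodes CD11c, an integrin of dendritic cells and of reactive microglia. It was at 0.136 and 0.139 FPKM (control), 0.495 and 0.380 FPKM (scrambled siRNA) and 2.56 and 1.87 FPKM (Baf53b siRNA). Only the Baf53b siRNA libraries reached 1 FPKM, and both deposited control intervals included 0. Clec7a (ENSMUSG00000079293.11, chr6:129461591-129472779, minus strand), the β-glucan receptor dectin-1, is listed at 0 in control replicate 2 and was at 0.0397 FPKM in control replicate 1. It was at 0.741 and 0.260 FPKM (scrambled siRNA) and 1.22 and 3.66 FPKM (Baf53b siRNA), where the replicates were further apart, as a ratio, than for any other of the 10 genes. Behind these values stood few fragments, at most 37.4 for Itgax and 57.7 for Clec7a in any library and under 1 in control, so no fold against control is given. GENCODE M21 annotates Clec7a as a polymorphic pseudogene, a gene that is intact in some strains and disrupted in others.

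Both fell just under the filter of a mean of 1 FPKM over the 6 libraries, Itgax with 0.929 and Clec7a with 0.988, as did Spp1 with 0.921. In a fit with the filter lowered to 0.1 FPKM, Itgax rose against control by 1.49 on the log2(FPKM + 1) scale (SE 0.15; limma adjusted p = 0.0126). Its difference against scrambled siRNA was 1.15 (SE 0.15; limma adjusted p = 0.0713). Clec7a differed by 1.66 from control (SE 0.34; limma adjusted p = 0.118) and by 1.12 from scrambled siRNA (SE 0.34; limma adjusted p = 0.677), and neither passed. At that filter Mpeg1 no longer passed against scrambled siRNA (limma adjusted p = 0.0549).

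Axl (ENSMUSG00000002602.16, chr7:25757273-25788705, minus strand), a receptor tyrosine kinase that binds GAS6 on dying cells, was at 11.9 and 10.3 FPKM (control), 12.8 and 13.8 FPKM (scrambled siRNA) and 17.2 and 14.2 FPKM (Baf53b siRNA). The nearest libraries of both siRNA groups, at 13.8 and 14.2 FPKM, almost met. Its log2 difference was 0.46 against control (SE 0.15; limma adjusted p = 0.565) and 0.22 against scrambled siRNA (SE 0.15; limma adjusted p = 1), and neither passed.

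Of the lipid-handling genes, Apoe (ENSMUSG00000002985.16, chr7:19696109-19699188, minus strand) encodes apolipoprotein E, a lipid carrier that astrocytes also make in quantity. It was at 1413 and 1599 FPKM (control), 1844 and 1611 FPKM (scrambled siRNA) and 2202 and 2389 FPKM (Baf53b siRNA). Control replicate 2 and scrambled siRNA replicate 2 were nearly equal, and both Baf53b siRNA libraries stood higher. The log2 difference was 0.61 against control (SE 0.20; limma adjusted p = 0.578) and 0.41 against scrambled siRNA (SE 0.20; limma adjusted p = 1), and under quantile normalization these became 0 and -0.15. That setting gives genes of the same rank the same value, and Apoe ranked 23 or 24 among the tested genes in every library. Lpl (ENSMUSG00000015568.16, chr8:68880491-68907448, plus strand), lipoprotein lipase, was the exception to the common order. It was at 3.52 and 4.43 FPKM (control), 3.14 and 4.36 FPKM (scrambled siRNA) and 4.79 and 4.08 FPKM (Baf53b siRNA), so the groups overlapped. Its differences were 0.13 against control (SE 0.19, 95% interval -0.33 to 0.59) and 0.20 against scrambled siRNA (SE 0.19, 95% interval -0.25 to 0.66) on the log2(FPKM + 1) scale.

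Spp1 (ENSMUSG00000029304.14, chr5:104435118-104441050, plus strand) encodes osteopontin, a secreted ligand of integrins and CD44. It was at 0.360 and 0.383 FPKM (control), 0.820 and 0.610 FPKM (scrambled siRNA) and 1.18 and 2.18 FPKM (Baf53b siRNA). The Baf53b siRNA libraries were the highest but far apart, and between 3.30 and 41.0 fragments stood behind each value. Its exons overlap those of the predicted gene Gm42793 on the same strand, so the deposited value may be shared between them. At the lower filter its log2 difference was 0.94 against control (SE 0.20; limma adjusted p = 0.132) and 0.62 against scrambled siRNA (SE 0.20; limma adjusted p = 0.746).

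**Figure D2:**
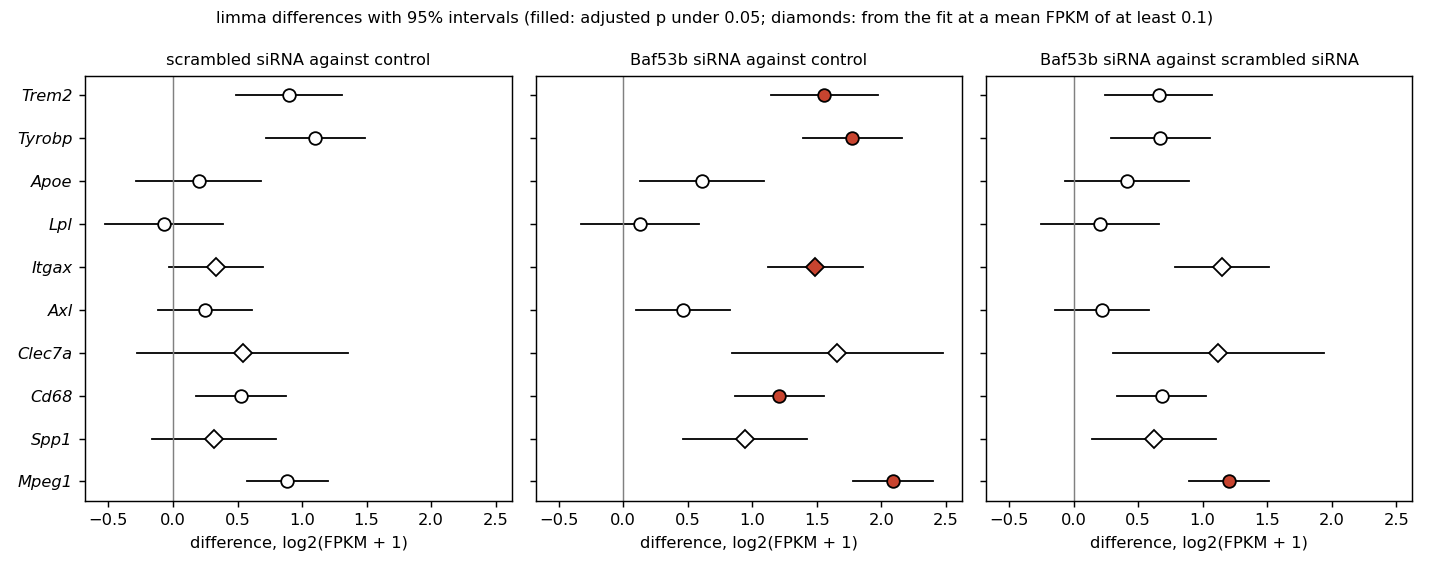
Differences on the log2(FPKM + 1) scale with 95% limma intervals for the 10 genes in the 3 comparisons. Circles are the 7 genes of the fit at a mean of 1 FPKM, diamonds the 3 fitted with the filter lowered to 0.1 FPKM, which Clec7a reached only through the siRNA groups, and filled symbols have an adjusted p under 0.05. Mpeg1 is filled in both Baf53b siRNA comparisons, although at the lower filter its adjusted p against scrambled siRNA was 0.0549. The points of Apoe in Baf53b siRNA, 0.61 against control and 0.41 against scrambled siRNA, were 0 and -0.15 under quantile normalization.

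Counted over the comparisons, 4 of the 7 tested genes were called higher in Baf53b siRNA than in control (Trem2, Tyrobp, Cd68 and Mpeg1), where 1.23% of all 14663 tested genes were called higher. With the filter at 0.1 FPKM it was 5 of 10, with Itgax added, against 1.05% of 21230 genes. In Baf53b siRNA against scrambled siRNA 1 of the 7 was called higher, against 0.123% of all genes, and at the lower filter 0 of 10 against 0.0754%. In scrambled siRNA against control limma with Benjamini-Hochberg adjustment called 0 of the 7 and 0% of all genes. At an unadjusted p under 0.05 that comparison held 298 genes higher, among them 4 of the 7, and 27 lower. Limma called 0 genes lower in each of the 3 comparisons, and at an unadjusted p under 0.05 none of the 7 was lower in any of them. The median log2 difference of the 7 was 1.21 against control and 0.66 against scrambled siRNA, beside 0.04 and 0.0026 over all tested genes. For scrambled siRNA against control it was 0.53, beside 0.04 over all genes. These comparisons share libraries and are not independent of each other. The set was chosen with earlier results of these data known, so the counts and shares describe it and test nothing.

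Although none passed, scrambled siRNA libraries held more of most of these RNAs than control libraries. Tyrobp differed by 1.10 on the log2(FPKM + 1) scale (SE 0.16; limma adjusted p = 0.328), Trem2 by 0.90 (SE 0.17; limma adjusted p = 0.579), Mpeg1 by 0.89 (SE 0.13; limma adjusted p = 0.328) and Cd68 by 0.53 (SE 0.15; limma adjusted p = 1). The mean of Trem2 was 2.00-fold, that of Mpeg1 1.97-fold and that of Cd68 1.51-fold the control mean. Lpl was at 0.944-fold. Both scrambled siRNA libraries were above both control libraries for 9 of the 10 genes, and for 12.7% of all tested genes. All shares here are over tested genes, which leave out Itgax, Clec7a and Spp1 as under the filter. Both Baf53b siRNA libraries were above both scrambled siRNA libraries for the same 9 genes and for 13.1% of tested genes, and above both control libraries for these 9 and for 16.7%.

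Other genes of the macrophage lineage were higher in the same libraries. As a share to set beside the lists that follow, 1.23% of all tested genes were called higher against control and 0.123% against scrambled siRNA. Of the 10 tested genes of a pan-macrophage list, 6 rose against control (Ly86, Ptprc, Aif1, Spi1, Fcer1g and Itgam) and 0 passed against scrambled siRNA (6 at an unadjusted limma p under 0.05, as were 391 of all 14663 tested genes), with medians of 1.43 and 0.59 on the log2(FPKM + 1) scale. Aif1, the microglial marker IBA1, was at 7.95 and 9.60 FPKM (control), 15.3 and 17.9 FPKM (scrambled siRNA) and 33.6 and 26.3 FPKM (Baf53b siRNA). Summed over its 11 measured genes the list was at 87.3 to 100.3 FPKM in control, 156 to 175 FPKM in scrambled siRNA and 211 to 289 FPKM in Baf53b siRNA.

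Expressed as a percentage of that sum within a library, the members separated into several patterns, described here without a test. Trem2 stayed between 7.12% and 9.65% and Cd68 between 5.55% and 8.20%, with groups overlapping. Tyrobp was at 26.4% and 26.6% in control and between 32.2% and 37.3% in the other 4 libraries. Mpeg1 was at 6.46% and 8.01% (control), 7.87% and 8.21% (scrambled siRNA) and 11.3% and 14.7% (Baf53b siRNA). Itgax was at 0.135% and 0.160%, then 0.283% and 0.243%, then 0.886% and 0.884%, with few fragments behind it. For both genes the Baf53b siRNA libraries were above all others also on this relative scale. Axl had the opposite order, with 11.8% in both control libraries, 7.33% and 8.83% (scrambled siRNA) and 5.94% and 6.75% (Baf53b siRNA). Lpl was at 3.51% and 5.08% (control), 1.80% and 2.79% (scrambled siRNA) and 1.66% and 1.93% (Baf53b siRNA). Axl and Lpl are also expressed outside macrophages.

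**Figure D3:**
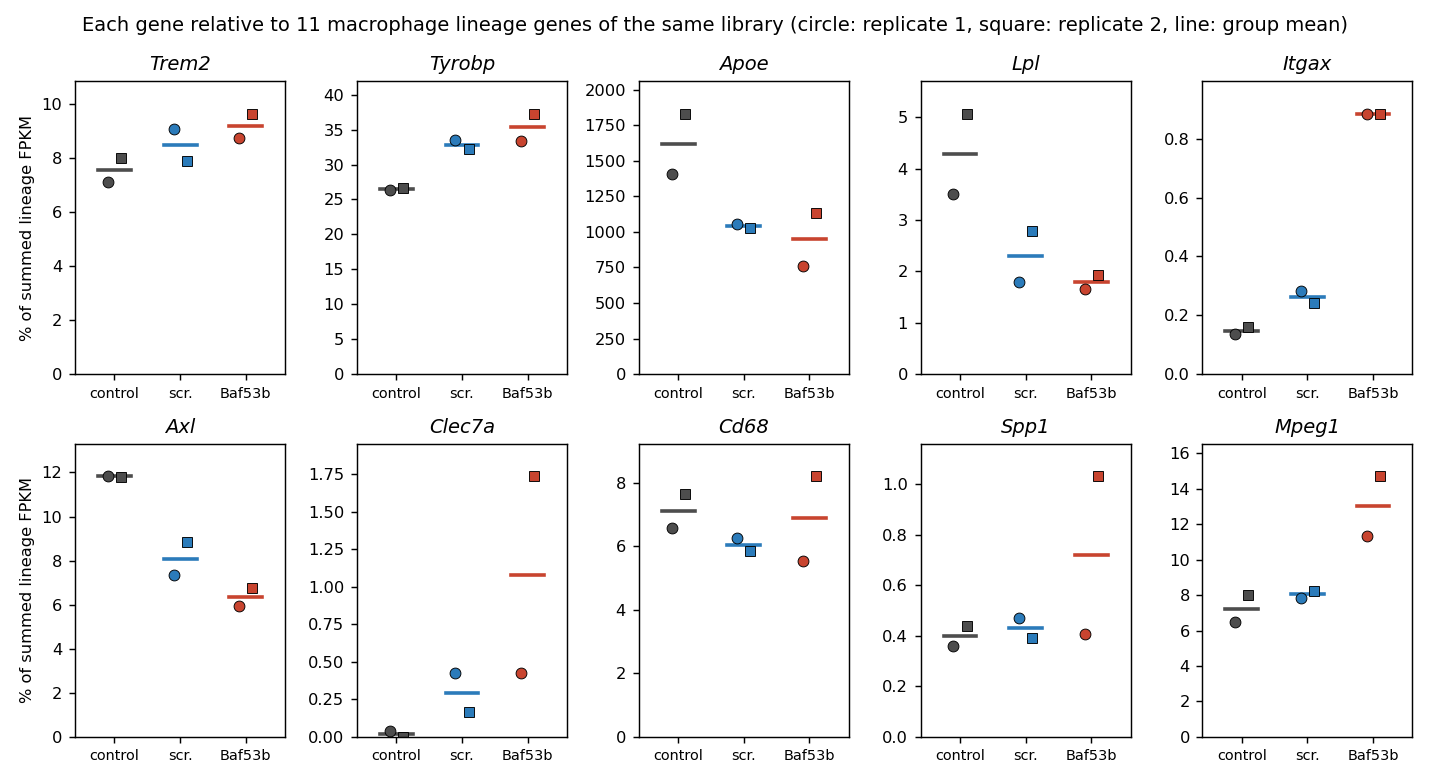
FPKM of each of the 10 genes as a percentage of the summed FPKM of 11 macrophage lineage genes in the same library (linear axes from 0), with circles for replicate 1, squares for replicate 2 and lines for group means. Itgax and Mpeg1 are highest in both Baf53b siRNA libraries, Trem2 and Cd68 show overlapping groups, and Axl is at 11.8% in both control libraries and at 5.94% and 6.75% in Baf53b siRNA.

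In a list of genes linked to TREM2 and TYROBP signalling, all 14 tested were higher by sign in Baf53b siRNA than in control. So were 60.7% of all tested genes. Of the 14, Syk and Btk, with control means of 0.682 and 0.669 FPKM, reached the filter only through the Baf53b siRNA libraries. Their sign and their share in the medians are therefore no support. Called against control were 4: Vav1, Cd33, Prkcd and Lyn. Against scrambled siRNA 0 passed (9 at an unadjusted limma p under 0.05, beside the 391 of all tested genes), and the medians of the list were 0.79 and 0.54 (log2). Vav1, an exchange factor acting below SYK, rose from a mean of 1.20 ± 0.0540 FPKM in control to 4.38 ± 0.783 FPKM in Baf53b siRNA (SD, n = 2; limma adjusted p = 0.0189). Cd33, a surface lectin, rose from 2.12 ± 0.139 to 6.52 ± 0.432 FPKM (SD, n = 2; limma adjusted p = 0.0225). Prkcd encodes a kinase C that neurons of the central amygdala also express, and rose from 2.80 ± 0.484 to 7.60 ± 1.87 FPKM (SD, n = 2; limma adjusted p = 0.0475). Syk itself, at 0.682 ± 0.0250 and 1.78 ± 0.123 FPKM (SD, n = 2), did not pass (limma adjusted p = 0.151), and is given although the naming rule did not select it.

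Of 21 tested further genes of the disease-associated state, 4 rose against control (Lyz2, Cd52, Cst7 and Ctsz) and 1, Cst7, also against scrambled siRNA. Over all tested genes 1.23% and 0.123% were called higher. The list medians were 0.53 and 0.33 (log2), beside 0.04 and 0.0026 over all tested genes. Against control 19 of the 21 were higher by sign and 17 were not called, among them Timp2 (0.0073, log2), Cadm1 (-0.020) and Ank (-0.091). Cst7, the cathepsin inhibitor cystatin F, was at 0.0521 and 0.0882 FPKM (control), 0.236 and 0.294 FPKM (scrambled siRNA) and 4.14 and 3.02 FPKM (Baf53b siRNA). It passed the filter of a mean of 1 FPKM only through the Baf53b siRNA libraries, so its calls are given as counts and not as support. Lyz2, lysozyme of myeloid cells, was at 2.50 and 1.42 FPKM (control), 7.78 and 7.94 FPKM (scrambled siRNA) and 27.1 and 59.6 FPKM (Baf53b siRNA). Cd52, a surface glycoprotein shared with lymphocytes, was at 2.31 and 2.97, 12.2 and 16.4, and 54.9 and 34.1 FPKM in the same order of groups.

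No homeostatic microglia gene was called lower by limma in the 3 comparisons, nor had one an unadjusted p under 0.05 with that sign. Of 16 tested, 15 were higher by sign in Baf53b siRNA than in control (60.7% of all tested genes were). Against control 2 passed, among them Cx3cr1, and the median was 0.57 (log2). Slc2a5 was lower, by -0.35. Against scrambled siRNA 0 passed, 14 were higher by sign (50.9% of all tested genes were) and the median was 0.19. The lower ones were Fcrls (-0.18) and Slc2a5 (-0.21). Cx3cr1, the fractalkine receptor, rose from 19.2 ± 0.365 to 37.5 ± 3.57 FPKM (SD, n = 2; limma adjusted p = 0.0243). P2ry12, the purinergic receptor most often used to mark resting microglia and chosen here after its values were seen, was at 49.1 and 44.0 FPKM (control), 54.8 and 52.3 FPKM (scrambled siRNA) and 59.1 and 59.9 FPKM (Baf53b siRNA) (limma adjusted p = 0.739 against control). Relative to the summed homeostatic genes, Trem2 was at 1.14% and 1.24% in control and 2.97% and 2.81% in Baf53b siRNA, and Mpeg1 at 1.03% and 1.24% and at 3.84% and 4.29%. On this scale Axl was at 1.89% and 1.83% in control and 2.02% and 1.97% in Baf53b siRNA. Lpl was at 0.561% and 0.785%, then 0.564% and 0.563%, and Apoe at 226% and 283%, then 259% and 330%, with groups overlapping. The homeostatic list holds Mef2c and Bin1, which other brain cells express too. Their control means were 271 and 86.8 FPKM, of a list sum of 564 to 626 FPKM in control.

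Among the partners of the lipid genes, 2 of 18 tested rose against control, Apoc1 and Abca1, and 0 passed against scrambled siRNA (5 at an unadjusted limma p under 0.05, again beside 391 of 14663). Apoc1, an apolipoprotein encoded beside Apoe, went from 5.02 ± 1.15 to 14.9 ± 2.94 FPKM (SD, n = 2; limma adjusted p = 0.0232), and Abca1, a cholesterol exporter that loads apolipoprotein E, from 4.15 ± 0.518 to 10.2 ± 1.61 FPKM (SD, n = 2; limma adjusted p = 0.0374). The other receptors and ligands of the Axl family, Tyro3, Mertk, Gas6 and Pros1, passed in none of the comparisons (1 at an unadjusted limma p under 0.05 against control, beside 696 of 14663 genes), with a median of 0.16 (log2) against control. Of 18 phagocytic receptors and lysosomal genes 5 rose against control (Itgb2, Fcgr3, Fcer1g, Clec4a2 and Itgam) and 0 against scrambled siRNA (6 at an unadjusted limma p under 0.05, beside the same 391). Clec4a2 passed the filter only through the siRNA groups. Itgb2, the β chain with which CD11c pairs, went from 1.73 ± 0.0676 to 7.79 ± 3.17 FPKM (SD, n = 2; limma adjusted p = 0.0304). Of 7 tested partners of osteopontin and CD11c, Itgb2 and Itgam were the 2 that rose. The osteopontin receptor Cd44 was under the filter, at 0.144 and 0.359 FPKM in control and 1.4 and 1.57 FPKM in Baf53b siRNA, and is named after its values were seen.

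Markers of blood-derived cells and of border-associated macrophages were low, and their sums differed between the groups to varying degrees. Summed over 14 lymphocyte genes, FPKM was 0.445 and 0.446 (control), 2.37 and 1.46 (scrambled siRNA) and 9.69 and 4.60 (Baf53b siRNA). None of them reached the filter, 11 of the 14 were under 1 FPKM in every library, and Cd3g, a chain of the T cell receptor complex named after its values were seen, is listed at 0 in both control libraries and was at 2.43 and 1.26 FPKM in Baf53b siRNA. The 14 monocyte and dendritic cell genes summed to 13.4 to 15.1, 17.7 to 21.6 and 27.0 to 32.2 FPKM, and 1 of 5 tested, Plac8, was called against control. Plac8 was at 0.227 and 0.157 FPKM (control) and 2.60 and 2.83 FPKM (Baf53b siRNA) and passed the filter only through the latter, so its call supports nothing further. Ccr2, named after its values were seen, was at 0.0617 and 0.0984 FPKM in control and 1.54 and 1.63 FPKM in Baf53b siRNA. Of the 5 tested genes of this list, 4 were higher by sign against control, as were 60.7% of all tested genes. Zbtb46 was lower, with means of 3.16 FPKM in control and 2.88 FPKM in Baf53b siRNA. Most of the control sum came from Fn1, Zbtb46, Vcan and Ly6c2, with control means of 3.98, 3.16, 3.15 and 2.60 FPKM. The 10 neutrophil genes summed to 0.543 to 0.746, 1.42 to 2.34 and 1.80 to 7.51 FPKM, with both siRNA groups overlapping and 0 called. Retnlg alone gave 5.90 of the 7.51 FPKM in Baf53b siRNA replicate 2 and was at 0.247 FPKM in replicate 1, while Ly6g, Ngp and Elane are listed at 0 in every library. Border-associated macrophage genes summed to 2.40 to 2.95, 2.44 to 2.99 and 4.16 to 5.60 FPKM, with control and scrambled siRNA overlapping, and 8 of the 10 were under 1 FPKM throughout. Monocytes, dendritic cells and border macrophages share Tyrobp, Itgax, Clec7a, Cd68 and Mpeg1 with microglia. The part of these cells in the results was not tested.

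Of the markers of resident cells other than microglia, Aqp4 and Prkcd passed the test against control. Astrocyte genes summed to 874 to 965 FPKM in control, 923 to 1007 FPKM in scrambled siRNA and 984 to 998 FPKM in Baf53b siRNA, and Aqp4, 1 of the 10 tested, the astrocytic water channel, rose against control (18.7 ± 1.55 to 33.4 ± 1.02 FPKM, SD, n = 2; limma adjusted p = 0.0443). Relative to the summed astrocyte genes, Apoe was at 162% and 166% (control), 183% and 174% (scrambled siRNA) and 221% and 243% (Baf53b siRNA). Of the 9 neuronal, 8 oligodendrocyte, 8 endothelial and 3 fibroblast genes tested, limma called 0 in any comparison, and at an unadjusted p under 0.05 the highest count was 1 oligodendrocyte and 1 endothelial gene, against control. The endothelial sum was nevertheless ordered as most members were, at 53.7 to 62.4 FPKM (control), 67.9 to 70.6 FPKM (scrambled siRNA) and 70.7 to 84.4 FPKM (Baf53b siRNA). The oligodendrocyte sum was at 753 to 944 FPKM (control), 1013 to 1077 FPKM (scrambled siRNA) and 978 to 990 FPKM (Baf53b siRNA), with both siRNA groups above control. The part of these cells in the results was not tested. Of 6 tested genes of regions next to the lateral amygdala, Prkcd was the 1 that rose against control.

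**Figure D4:**
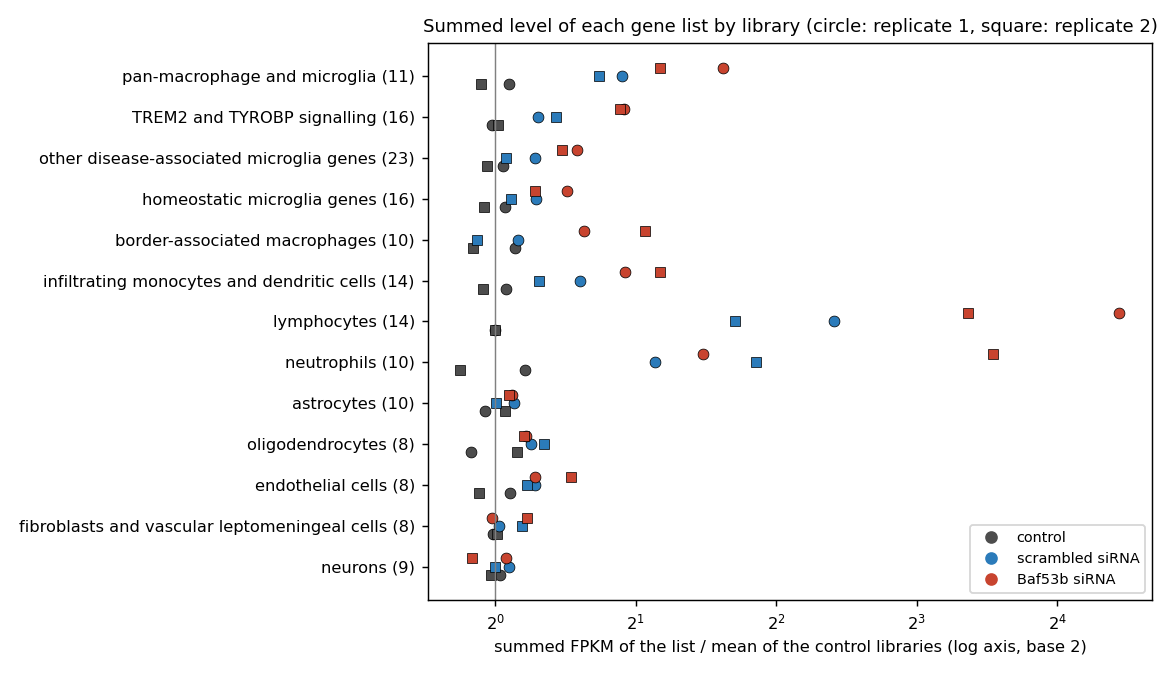
Summed FPKM of each marker list, divided by the mean of the control libraries (log axis, base 2), with the number of measured genes in parentheses, circles for replicate 1 and squares for replicate 2. Pan-macrophage, signalling and blood-derived lists are above control in both Baf53b siRNA libraries, the lymphocyte list most of all at 21.8 and 10.3 times control from a sum of 0.445 and 0.446 FPKM, while astrocyte and neuron lists stay between 0.893 and 1.10.

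The genes outside the set that lay nearest in pattern to members are described here without a test. Likeness was measured as the Euclidean distance between log2(FPKM + 1) values centred on their mean over the 6 libraries, where 0 is an identical pattern. The 3 nearest protein-coding genes to Trem2 were Fcgr2b, an inhibitory Fc receptor, at a distance of 0.22, Arpc1b, a subunit of the actin-nucleating Arp2/3 complex, at 0.23, and Fcer1g, the Fc receptor signalling chain, at 0.25. Those nearest to Cd68 were Hvcn1, a voltage-gated proton channel, at 0.11, and Isg15 and Tnfaip8l2, both at 0.18. Apoe had Pbxip1 at 0.073 and Ifnar2 and Dock8 at 0.15. With 14663 tested genes and 6 libraries, a near neighbour needs no group order: Lpl, whose groups overlapped, had Znhit3 at 0.14. Among the 100 nearest of the tested genes, Tyrobp had 3 other members (Trem2, Cd68 and Mpeg1). Mpeg1 had 3 (Trem2, Tyrobp and Cd68) and Trem2 had 2 (Tyrobp and Cd68), while Apoe, Axl, Cd68 and Lpl had 0. The distance of the 100th gene differed between members, from 0.25 for Lpl to 0.90 for Mpeg1.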

How the data were processed

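Libraries were made from oligo-dT selected messenger RNA with a stranded kit and sequenced from both ends, per the labels' protocols. Cufflinks 2.2.1, TopHat2 2.1.1, bcl2fastq 2.19.1.403 and the mouse build mm10 are named in the submitters' processing notes, without an annotation release. As values the authors deposited FPKM per gene with a confidence interval and a status, per the file headers. Read counts were not used here, so fragments were estimated from the deposited intervals, whose half-width was read as 2 standard errors of a Poisson count, covering counting error only.

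The 92 spike-in rows, 4 genes with a failed estimate and 354 small RNA genes were left out, and rows of 48 identifiers were summed. Gene types came from GENCODE M21, matched by 50160 identifiers. Genes with a mean of at least 1 FPKM (14663, among them 7 of the 10 members) were fitted as log2(FPKM + 1) in 1 model of all 6 libraries (limma 3.58.1 under R 4.3.3, trended eBayes), two-sided, with Benjamini-Hochberg adjustment over all genes at 0.05. A fold change on this scale understates that of low genes. The fit was tested on simulated data.

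The members and the 18 gene lists beside them were chosen with earlier results of these data known. All members were named. From a list, up to 3 genes were named, those with the largest difference called against control, or the 2 highest where none was called. Of 212 listed genes 210 were found, and Irf8 and Tubb3 were not analysed here. The values of 1 listed gene are not reported here. Alternatives were another pseudocount, filter, scaling or variance model, a replicate block, and each library left out.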

Additional observations from a re-analysis of the deposited data

Results flagged for a closer look

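Synthetic spike-in RNA entered no comparison above and goes unmentioned in the labels. It was above its level in both control libraries (117 and 125 summed FPKM) in the other 4. It summed to 207 FPKM in scrambled siRNA replicate 1, 656 in scrambled siRNA replicate 2, 4825 in Baf53b siRNA replicate 1 and 811 in Baf53b siRNA replicate 2. At most 0.755% of a library's FPKM came from it. Like 9 of the 10 microglia genes it was lowest in control, higher in scrambled siRNA and highest in Baf53b siRNA, with no overlap, and its part in their results was not tested.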

How the results depend on the processing

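Of the 21 alternative analyses, 1, the filter at 0.9 FPKM, was chosen after seeing the data. The count of members called in Baf53b siRNA against scrambled siRNA, 1 above, became 0 with a pseudocount of 0.1, with no filter, with a filter of 0.1 FPKM, with small RNA genes kept and with only the groups compared, and was 0 to 0 with a library left out. Against control the 4 calls became 1 with no filter and 1 to 5 with a library left out: 1 (Mpeg1) without Baf53b siRNA replicate 1, and 2 (Tyrobp and Mpeg1) without control replicate 1 and again without control replicate 2. With a library left out, the lone library of its group is assumed to vary like the others. The filter of 1 FPKM was then applied anew to the remaining libraries, so the members tested were not always the same. Itgax could enter in this way through its Baf53b siRNA values, and the count of 5 includes it. In scrambled siRNA against control the count was 0 throughout.

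Over all genes, calls against scrambled siRNA, 18 above, ranged from 0 to 30 (4 to 23 with a library left out), and those against control, 181 above, from 42 to 222 (34 to 139). Differences that changed sign, none of them called, were Apoe against scrambled siRNA under quantile normalization (-0.153) and those of Lpl and Actl6b below. With a library left out, Lpl in Baf53b siRNA against control ran from -0.00091 (without control replicate 1) to 0.265 (without control replicate 2). Lpl in scrambled siRNA against control ran from -0.257 (without scrambled siRNA replicate 2) to 0.114 (without scrambled siRNA replicate 1), and was 0.0613 without control replicate 2. Actl6b in scrambled siRNA against control was -0.0499, -0.0234, -0.0394 and -0.0373 on rescaling without mitochondrial genes, to the upper quartile, by median ratios and by quantiles, and -0.00922 to 0.0315 with a control library left out. The cause was not tested. Depth limits Itgax, Clec7a and Spp1, with at most 57.7 fragments in a library.

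The groups share replicate numbers, which the labels do not tie to a litter or day. Same-numbered libraries deviated together (correlations of 0.39, 0.18 and 0.36 over genes), but with only 2 numbers this does not pair them. With the replicate block, 1, 4 and 0 members were called in Baf53b siRNA against scrambled siRNA, Baf53b siRNA against control and scrambled siRNA against control, as without it, and 13, 188 and 0 of all genes.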
